A study of Mus musculus with 8 samples.

Results

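The liver of fasted mice was examined for 9 genes of glycogen synthesis and breakdown, Gys2, Gbe1, Stbd1, Pygl, Phka2, Ppp1r3b, Ppp1r3c, Ppp1r3g and Gsk3b. They were taken by gene name from the 45706 genes of the count table, each name gave 1 row, and all 9 passed the filter on low counts. The mice were female C57BL/6J, 4 months old, kept on regular chow and fasted overnight before the liver was taken. In 4 of them (SA/SA mice, genotype PLIN5 S155A) CRISPR-Cas9 had replaced a serine of the lipid droplet protein PLIN5 with alanine. The change is in every cell and the gene stays under its own promoter, and the sequence was checked in a founder mouse. The 4 WT mice carried the unchanged gene, and no fed mice were among the sequenced samples. The question put to the sequencing was which liver genes depend on phosphorylation of that serine during fasting.

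Glycogen is the branched glucose polymer that the liver lays down after meals and breaks down between them. Glycogen synthase lengthens the chains and branching enzyme adds branch points, while glycogen phosphorylase removes glucose units one at a time. Phosphorylation turns synthase off and phosphorylase on, and protein phosphatase 1, carried to the glycogen particle by targeting subunits of the PPP1R3 family, takes the phosphate groups off again. Glucagon and protein kinase A act during fasting to favour breakdown, and insulin acts after meals to favour synthesis.

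Libraries held between 39709830 and 54540612 counts. Hepatocytes are the labelled cell type, and the 8 hepatocyte markers examined, among them Alb and Hnf4a, summed to between 88652 and 127673 CPM (counts scaled to a common library size) in every mouse. Markers of Kupffer, endothelial and stellate cells were also counted in every library, so the values are read as whole liver, where fewer cells of a type and less RNA per cell cannot be told apart. Pancreatic acinar markers summed to 30.2 CPM in WT replicate 2 and to at most 0.612 CPM in the other mice. Lymphocyte markers summed to 1249 CPM in SA/SA replicate 3 and to at most 25.4 CPM in the others. In SA/SA replicate 3, Ighm was at 1164 CPM and Jchain at 73.8 CPM, while Cd3e, Cd79a, Ms4a1 and Nkg7 were at 1.40 to 5.97 CPM. Red blood cell markers summed to between 411 and 2647 CPM, highest in WT replicate 4. Plin5 itself ranged from 183 to 254 CPM in WT and from 192 to 457 CPM in SA/SA mice (adjusted p = 0.993 from edgeR), and gene counts do not tell the edited from the reference codon. The animal numbers in the labels were under 200 for replicates 1 and 4 and over 800 for replicates 2 and 3 of both genotypes, and what else separates these ranges is not labelled. Differences within each range, of 2 WT and 2 SA/SA mice, stand next to the pooled values and were not tested on their own. For Plin5 the differences in mean log2 CPM were 0.92 among numbers under 200 and 0.29 among those over 800. The interaction of genotype with the range was tested for all genes.

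None of the 9 genes passed an adjusted p of 0.05 between SA/SA and WT mice in edgeR's quasi-likelihood test with Benjamini-Hochberg adjustment over 14629 genes, where 0% of all genes did. Their adjusted p was 0.993 or more. At an unadjusted p under 0.05 there were also 0 of the 9 genes, beside 3.4% of all genes with edgeR, 3.14% with DESeq2 and 3.19% with limma-voom. DESeq2 called 0 of the 9 and 0.0314% of all genes at an adjusted p of 0.05. It gave no p for Ppp1r3g, so its counts do not cover that gene. In none of the 9 did every SA/SA mouse lie on the same side of every WT mouse, which was so for 2.3% of all genes tested, 0.943% higher and 1.36% lower in SA/SA mice. The fitted log2 change was above 0 for 4 genes and below 0 for 5, with a median of -0.031 beside -0.0050 over all genes tested. The median size of the change, regardless of sign, was 0.14 for the 9 genes and 0.14 for all genes.

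**Figure D1:**
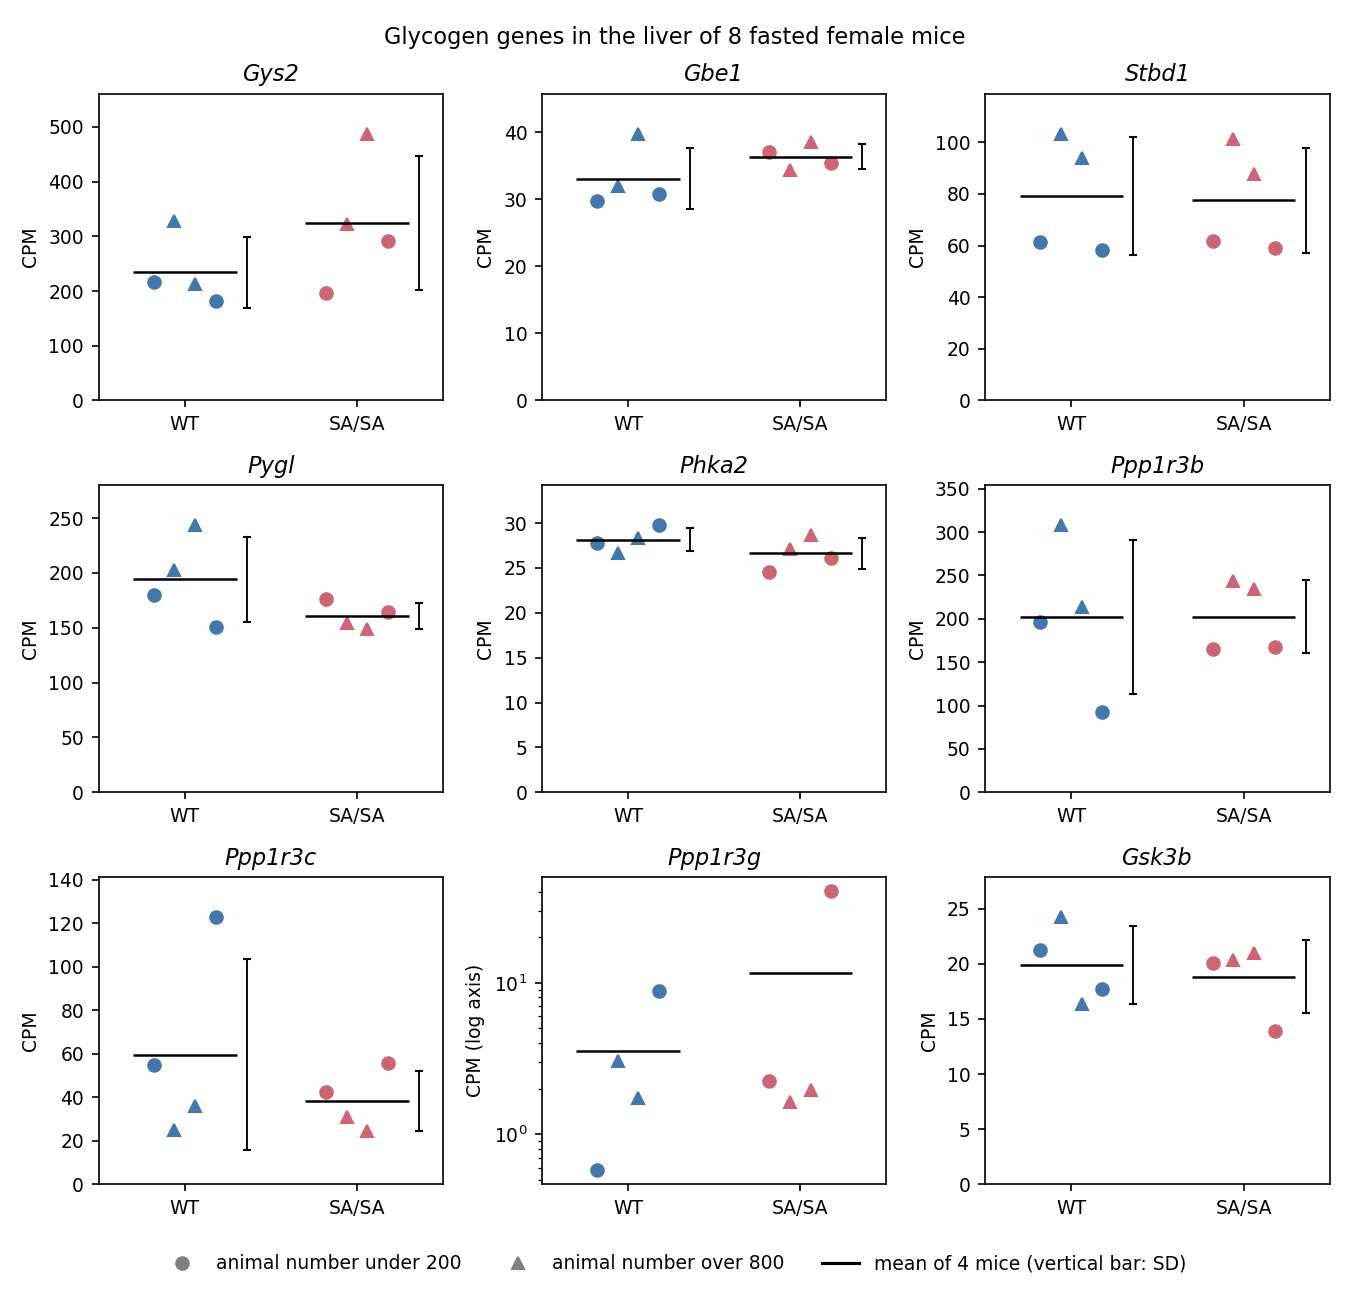
CPM of each gene in 4 WT and 4 SA/SA mice, with a line at the mean and a vertical bar for the SD of 4 mice (no bar for Ppp1r3g, whose axis is logarithmic). Circles are mice with animal numbers under 200 and triangles those over 800. The genotypes overlap in every panel, and SA/SA replicate 4 stands alone for Ppp1r3g at 40.4 CPM.

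Among the genes that build glycogen, Gys2 encodes the liver glycogen synthase (ENSMUSG00000030244, chromosome 6 of GRCm38 from 142422613 to 142473109, reverse strand). It was at 216, 329, 212 and 181 CPM in WT replicates 1 to 4 and at 196, 322, 488 and 291 CPM in SA/SA replicates 1 to 4. SA/SA replicate 3 was the highest of the 8 mice, but SA/SA replicate 1 was below all WT mice except replicate 4. In the edgeR fit it changed by a log2 value of 0.47 (standard error, SE, 0.27, 95% interval -0.13 to 1.06, adjusted p = 0.993), from a mean of 235 ± 64.7 CPM in WT to 324 ± 122 CPM (SD, n = 4), and an exact two-sided permutation of the mice gave p = 0.314. Mean log2 CPM differed by 0.27 among low animal numbers and by 0.59 among high ones. Without SA/SA replicate 3 the log2 change was 0.20, and at the other end it was 0.68 without WT replicate 2 (unadjusted p = 0.0311, adjusted p = 0.913 from edgeR).

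Gbe1, the glycogen branching enzyme (ENSMUSG00000022707, chromosome 16 from 70313949 to 70569716, forward strand), was among the steadier genes. WT mice were at 29.7, 32.0, 39.8 and 30.7 CPM and SA/SA mice at 37.1, 34.3, 38.6 and 35.4 CPM. The 4 SA/SA mice lay close together and above 3 of the WT mice, while WT replicate 3 was above all of them. The estimate for Gbe1 was a log2 change of 0.14 (SE 0.11, 95% interval -0.11 to 0.39, adjusted p = 0.993; exact two-sided permutation p = 0.229). This interval leaves room for a change of between 0.926-fold and 1.31-fold. Without WT replicate 3 the log2 change was 0.24 (unadjusted p = 0.0397, adjusted p = 0.9999 from edgeR). Without WT replicate 1 it was 0.093 (unadjusted p = 0.445, adjusted p = 0.965 from edgeR).

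Stbd1 encodes a starch-binding protein that anchors glycogen to membranes (ENSMUSG00000047963, chromosome 5 from 92603041 to 92606579, forward strand). It was at 61.3, 103, 93.7 and 58.2 CPM in WT mice and at 61.9, 101, 87.6 and 59.1 CPM in SA/SA mice. Replicates 1 and 4 were near 60 CPM and replicates 2 and 3 were higher in both genotypes, so the values followed the animal numbers. The log2 change between genotypes was -0.031 (SE 0.23, 95% interval -0.55 to 0.49, adjusted p = 0.999), with differences of 0.018 and -0.064 in the low and high ranges.

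On the side of breakdown, Pygl encodes the liver glycogen phosphorylase (ENSMUSG00000021069, chromosome 12 from 70190811 to 70231488, reverse strand). F730035M05Rik overlaps it on the other strand, and the sources used here do not say if reads were assigned by strand. Pygl was at 179.6, 203, 243 and 151 CPM in WT mice and at 176, 154, 149 and 164 CPM in SA/SA mice. All 4 SA/SA mice were below 3 of the 4 WT mice, and WT replicate 4 lay among them. The log2 change for Pygl was -0.27 (SE 0.14, 95% interval -0.59 to 0.051, adjusted p = 0.993; exact two-sided permutation p = 0.171). Without WT replicate 3 it was -0.14, and without WT replicate 4 it was -0.37 (unadjusted p = 0.0187, adjusted p = 0.9996 from edgeR). Pygl differed by 0.048 in the low range of animal numbers and by -0.55 in the high range. The interaction of genotype with the range had an unadjusted p of 0.0168 and an adjusted p of 0.347 from edgeR. In that test 1 of the 9 genes, Pygl, had an unadjusted p under 0.05, beside 11.1% of all genes.

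Phka2, the regulatory alpha subunit of liver phosphorylase kinase (ENSMUSG00000031295, chromosome X from 160502166 to 160598878, forward strand), relays the hormone signal to phosphorylase. It was at 27.7, 26.7, 28.3 and 29.7 CPM in WT mice and at 24.6, 27.2, 28.6 and 26.1 CPM in SA/SA mice. Its SD of log2 CPM over the 8 mice was 0.085, and 97.7% of the genes tested had a larger SD. For Phka2 the log2 change was -0.079 (SE 0.091, 95% interval -0.28 to 0.12, adjusted p = 0.993), which leaves room for a change of between 0.823-fold and 1.09-fold. Gm15243 overlaps Phka2 on the opposite strand.

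Synthase and phosphorylase were also set against each other within each mouse, as log2 CPM of Gys2 minus log2 CPM of Pygl, in which a difference between genotypes does not depend on gene length. The value was 0.26, 0.70, -0.20 and 0.27 in WT replicates 1 to 4 and 0.15, 1.06, 1.71 and 0.83 in SA/SA replicates 1 to 4. In SA/SA mice, 3 of 4 values were above every WT value and replicate 1 was below 3 of them. The mean was 0.26 ± 0.37 in WT and 0.94 ± 0.64 in SA/SA mice (SD, n = 4), a difference of 0.68 that is near the spread between SA/SA mice and was not tested. The difference was 0.23 in the low range of animal numbers and 1.14 in the high range, and 0.42 without SA/SA replicate 3.

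**Figure D2:**
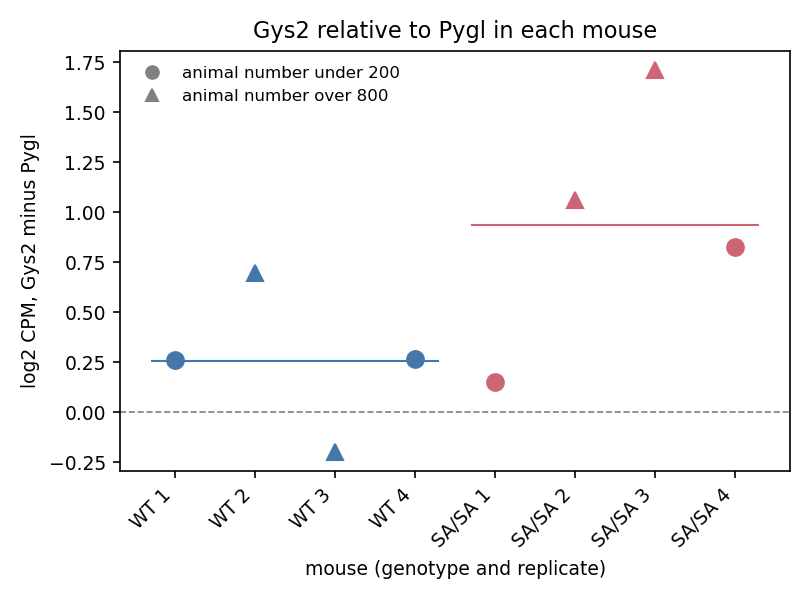
Log2 CPM of Gys2 minus log2 CPM of Pygl in each of the 8 mice, with a line at the mean of each genotype (0.26 in WT and 0.94 in SA/SA mice). Circles are animal numbers under 200 and triangles those over 800. SA/SA replicate 3 is highest at 1.71 and WT replicate 3 lowest at -0.20.

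The 3 targeting subunits of protein phosphatase 1 had the highest SD of log2 CPM over the 8 mice among the 9 genes, from 0.52 for Ppp1r3b to 1.83 for Ppp1r3g. Ppp1r3b, known as the liver subunit GL (ENSMUSG00000046794, chromosome 8 from 35375739 to 35388139, forward strand), was at 196, 308, 214 and 92.0 CPM in WT mice and at 166, 243, 234 and 168 CPM in SA/SA mice. The 4 SA/SA mice lay inside the range of the WT mice. The means were 202 ± 88.4 CPM and 203 ± 41.6 CPM (SD, n = 4) in that order, and the log2 change was 0.0020 (SE 0.30, 95% interval -0.67 to 0.68, adjusted p = 0.9998). The interval spans changes from 0.627-fold to 1.60-fold, so the equal means do not show equal expression. Gm45469 overlaps Ppp1r3b on the opposite strand.

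Ppp1r3c encodes the subunit called protein targeting to glycogen, which also occurs outside the liver (ENSMUSG00000067279, chromosome 19 from 36731731 to 36736653, reverse strand). It was at 54.7, 24.7, 35.9 and 123 CPM in WT mice and at 42.4, 31.0, 24.4 and 55.8 CPM in SA/SA mice. WT replicate 4 was the highest, and the rest of both genotypes were intermixed. The log2 change was -0.63 (SE 0.45, 95% interval -1.63 to 0.37, adjusted p = 0.993; exact two-sided permutation p = 0.514). This value rested on WT replicate 4, since it was -0.00082 without that mouse.

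Ppp1r3g encodes a further glycogen-targeting subunit, reported in liver as one that changes with feeding (ENSMUSG00000050423, chromosome 13 from 35958839 to 35970388, forward strand). It was at 0.578, 3.05, 1.73 and 8.84 CPM in WT mice and at 2.24, 1.63, 1.95 and 40.4 CPM in SA/SA mice, from between 31 and 2042 counts. SA/SA replicate 4 was 4.57 times the next mouse, WT replicate 4, and the other 6 mice were at 3.05 CPM or less. Only 0.465% of the genes tested had a larger SD of log2 CPM over the 8 mice than its 1.83. For Ppp1r3g the log2 change came to 1.70 (SE 1.13, 95% interval -0.81 to 4.22, adjusted p = 0.993; exact two-sided permutation p = 0.657), and it was -0.87 without SA/SA replicate 4. DESeq2 gave no p for this gene. Gm30127 overlaps Ppp1r3g on the opposite strand.

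Across 12107 genes with a mean of at least 1 CPM, the pattern of Ppp1r3g over the 8 mice was most like that of Arrdc4 (Pearson r = 0.94), Zdhhc1 (r = 0.93) and Zfp703 (r = 0.93), given as a description without a test. Arrdc4, an arrestin-like gene, ran from 18.1 to 34.8 CPM, with SA/SA replicate 4 highest and WT replicate 4 next, as for Ppp1r3g. Without SA/SA replicate 4 the r was 0.89, 0.88 and 0.94 in the same order of genes. The genes compared share the same 8 libraries, and a search over so many genes with 8 mice finds high values of r.

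The sequence around the start of the gene is shown for Ppp1r3c and Ppp1r3g, which varied most between mice, and for Stbd1, whose level followed the animal numbers. The windows are from RefSeq on GRCm38.p6, each 300 bases long, 250 before the start and 50 after it, read 5′ to 3′ on the strand of the gene. They were found for 7 of the 9 genes, not for Gys2 or Ppp1r3b. That of Ppp1r3c is chr19:36736555-36736854, that of Ppp1r3g is chr13:35967656-35967955 and that of Stbd1 is chr5:92602801-92603100, and capitals mark any match to the motifs named after them.
Ppp1r3c: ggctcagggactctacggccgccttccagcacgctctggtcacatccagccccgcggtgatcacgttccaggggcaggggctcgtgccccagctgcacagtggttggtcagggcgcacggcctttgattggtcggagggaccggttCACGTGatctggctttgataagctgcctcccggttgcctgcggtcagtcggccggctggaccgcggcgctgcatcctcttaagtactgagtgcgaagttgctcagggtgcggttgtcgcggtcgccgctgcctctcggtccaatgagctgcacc
Ppp1r3g: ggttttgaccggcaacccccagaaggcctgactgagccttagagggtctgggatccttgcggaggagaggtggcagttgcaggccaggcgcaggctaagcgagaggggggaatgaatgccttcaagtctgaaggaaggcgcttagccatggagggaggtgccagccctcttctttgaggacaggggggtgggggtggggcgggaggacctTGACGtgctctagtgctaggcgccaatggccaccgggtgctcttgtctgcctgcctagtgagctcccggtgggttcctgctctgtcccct
Stbd1: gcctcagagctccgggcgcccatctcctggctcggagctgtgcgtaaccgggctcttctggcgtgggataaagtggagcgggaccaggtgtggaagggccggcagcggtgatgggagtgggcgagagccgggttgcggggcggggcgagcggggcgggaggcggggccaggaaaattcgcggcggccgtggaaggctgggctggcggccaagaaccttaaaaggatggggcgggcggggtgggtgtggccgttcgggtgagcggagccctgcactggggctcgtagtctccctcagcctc

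The motifs searched on both strands were the E-box CACGTG, bound by clock and other basic helix-loop-helix factors, the cAMP response element TGACGTCA and its core TGACG, and GTAAACA, a motif of FOXO factors. A match to the longer element is also counted for its core. Ppp1r3c held 1 E-box, 104 bases before the start, and 7.15% of all 32851 windows held at least 1. Ppp1r3g held 1 match to TGACG, 40 bases before the start, as did Pygl, 44 bases before the start, and 20.8% of all windows held at least 1. TGACGTCA was in none of the 7 windows and in 1.79% of all windows, and GTAAACA was in none of the 7 and in 3.65% of all. The RefSeq starts of Ppp1r3g and Pygl lie inside the GENCODE spans of these genes, which begin upstream of the windows. Other starts are therefore annotated that the windows do not cover. A match describes the letters of the window only.

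Gsk3b encodes glycogen synthase kinase 3 beta, which phosphorylates synthase and acts on many other proteins (ENSMUSG00000022812, chromosome 16 from 38089001 to 38246084, forward strand). It was at 21.2, 24.3, 16.4 and 17.8 CPM in WT mice and at 20.1, 20.3, 21.0 and 13.9 CPM in SA/SA mice. SA/SA replicate 4, the mouse with the most Ppp1r3g, had the least Gsk3b. Gsk3b had a log2 change of -0.082 (SE 0.17, 95% interval -0.45 to 0.29, adjusted p = 0.996), with -0.22 in the low range of animal numbers and 0.049 in the high range. Other annotated genes overlap its span, Gm27931 on the opposite strand and 2 copies of Gm25617 on the same strand.

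To compare levels between genes, CPM was divided by the length in kb of a principal coding transcript in GENCODE M21, which approximates the lengths that salmon used. Gys2 had the highest median over the 8 mice, 95.4 CPM per kb (range 68.3 to 184), followed by Pygl at 60.3 (52.7 to 86.2) and Ppp1r3b at 46.7 (21.0 to 70.2). Stbd1 had a median of 37.7 CPM per kb (29.3 to 52.1). These 4 had the highest medians, and each overlapped its neighbour in the order. Ppp1r3c had a median of 14.4 CPM per kb (8.95 to 45.1), Gbe1 of 12.3 (10.4 to 13.98) and Phka2 of 6.64 (5.95 to 7.20). The ranges of Gbe1 and Phka2 did not overlap. That of Ppp1r3c covered that of Gbe1 and also overlapped those of Stbd1 and Ppp1r3b. Gsk3b had a median of 2.44 CPM per kb (1.67 to 2.92) and Ppp1r3g of 0.878 (0.242 to 16.9), the widest range as a ratio of highest to lowest.

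On that scale the balance of the targeting subunits differed between mice. The level of Ppp1r3b per kb was 2.23, 7.74, 3.70 and 0.466 times that of Ppp1r3c in WT replicates 1 to 4 and 2.43, 4.88, 5.95 and 1.87 times in SA/SA replicates 1 to 4. WT replicate 4 was the only mouse with more Ppp1r3c than Ppp1r3b. In SA/SA replicate 4 the level of Ppp1r3g, 16.9 CPM per kb, came near that of Ppp1r3c, 20.5 CPM per kb, where Ppp1r3g was at most 3.70 CPM per kb in the other mice.

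Ppp1r3b and Ppp1r3c ran in opposite directions over the 8 mice. Pearson's r of their log2 CPM was -0.94 (exact permutation p = 0.00139) and Spearman's rho was -0.86 (exact permutation p = 0.0107). With Benjamini-Hochberg adjustment over the 36 pairs of the 9 genes these became 0.0487 and 0.129. The permutation moved values across the animal number ranges, between which neither gene overlapped. Its p therefore also reflects the difference between the ranges. Leaving out the 2 mice farthest from the median of Ppp1r3b gave r = -0.79 over 6 mice, and taking the means of genotype and of animal number range out of all values gave r = -0.92. Each range holds only 4 mice, too few for an r of its own. The pair was singled out after the values were seen. Of the other 35 pairs, Stbd1 with Ppp1r3b (r = 0.80) also had an adjusted p of 0.0487 for Pearson's r by exact permutation. The same limit holds for this pair, as Stbd1 did not overlap between the ranges either. With the means of genotype and range taken out, its r was 0.56.

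**Figure D3:**
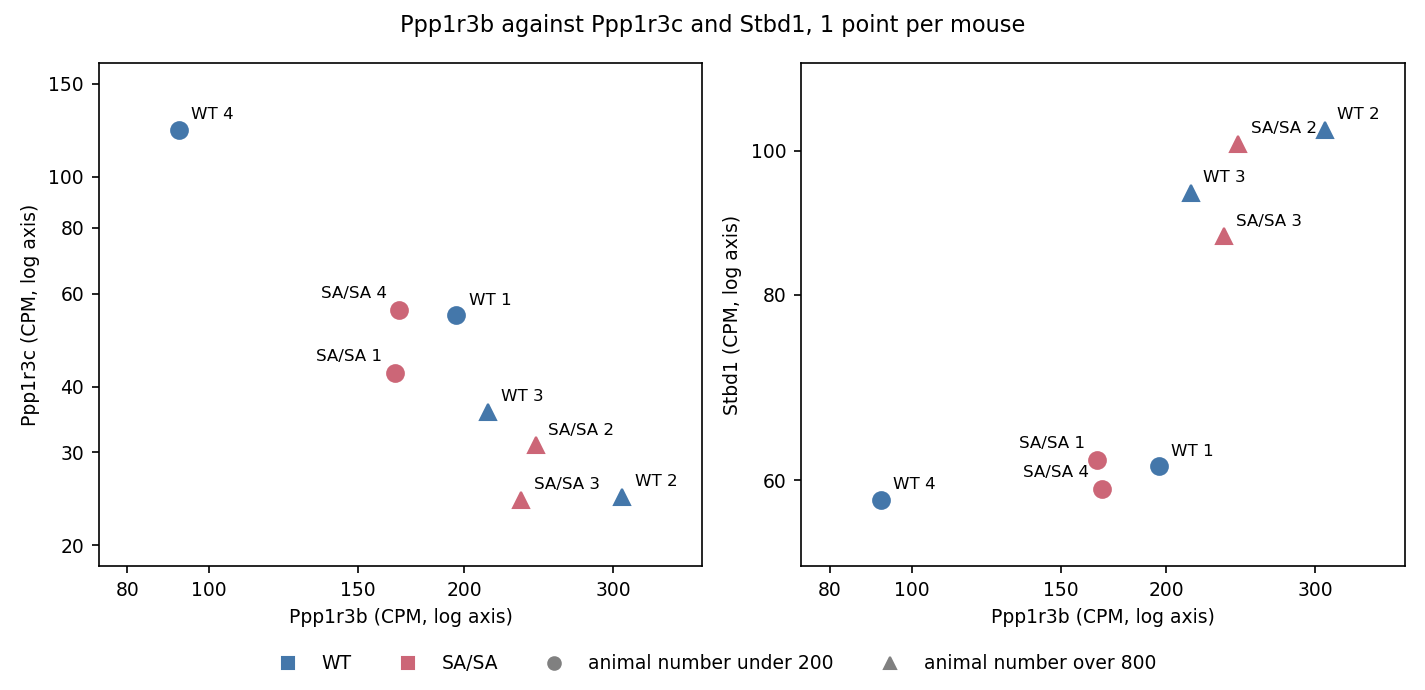
Each point is a mouse, with Ppp1r3b in CPM on the horizontal axis and Ppp1r3c (left) or Stbd1 (right) in CPM on the vertical axis, all logarithmic. WT replicate 4 has the least Ppp1r3b, 92.0 CPM, and the most Ppp1r3c, 123 CPM. The animal number ranges do not overlap for Ppp1r3b, Ppp1r3c or Stbd1.

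Mice with animal numbers over 800 were compared with those under 200, a split taken from the labels, in an edgeR fit that also held genotype. The values of single genes were picked out after they were seen. None of the 9 genes passed an adjusted p of 0.05, nor did any of the 14629 genes tested (0%). At an unadjusted p under 0.05 there were 4 of 9, beside 12.8% of all genes, and 3 of 9 did not overlap between the ranges, beside 6.85% of all genes (3.53% higher in the high range). Stbd1 was at 58.2 to 61.9 CPM in the low range and 87.6 to 103 CPM in the high range, with a log2 change of 0.68 (SE 0.090, adjusted p = 0.0618, rank 6 of all genes by p). With 1 mouse left out, its adjusted p was 0.0290 without WT replicate 3 and 0.0552 to 0.236 without any other mouse (edgeR). The fit without WT replicate 3 called 111 genes. Ppp1r3b was at 92.0 to 196 CPM and 214 to 308 CPM (log2 change 0.69, SE 0.22, adjusted p = 0.269). Ppp1r3c went the other way, from 42.4 to 123 CPM in the low range and from 24.4 to 35.9 CPM in the high range (log2 change -1.19, SE 0.27, adjusted p = 0.170). Gys2 overlapped, at 181 to 291 CPM and 212 to 488 CPM (log2 change 0.59, SE 0.20, adjusted p = 0.280). The summed endothelial markers also did not overlap between the ranges, at 134 to 185 CPM and 111 to 128 CPM. The part of these markers in the differences above was not tested. Of them, Pecam1, Kdr, Lyve1, Clec4g and Cdh5 overlapped and Stab2 did not, at 45.3 to 54.2 CPM and 33.4 to 39.6 CPM. The summed adipocyte markers did not overlap either, at 60.1 to 131 CPM and 36.2 to 57.4 CPM, but nearly all of that sum was Cidec, a lipid droplet gene also known from liver. Adipoq and Plin1, at no more than 0.400 and 0.189 CPM in any mouse, overlapped between the ranges, and Lep was at 0 counts.

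**Figure D4:**
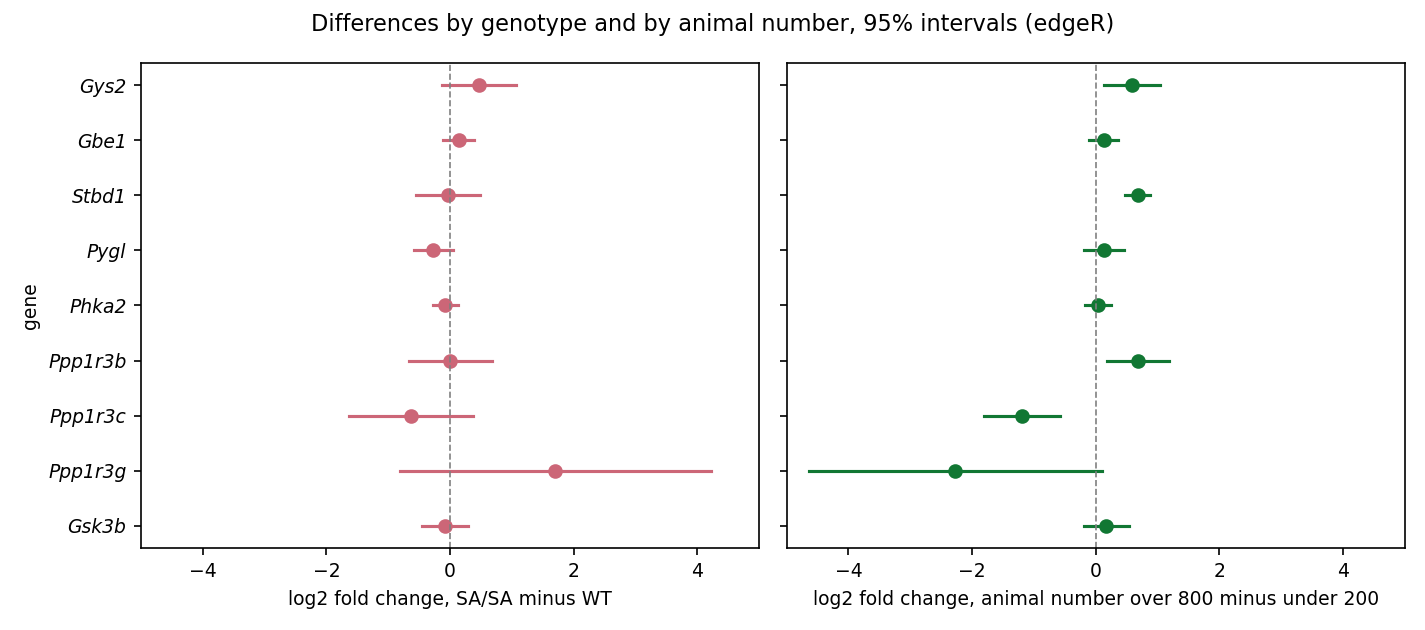
Log2 change of each gene with its 95% interval from edgeR, for SA/SA against WT mice (left) and for animal numbers over 800 against under 200 (right). Every interval on the left includes 0, and those of Gys2, Stbd1, Ppp1r3b and Ppp1r3c on the right do not.

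A wider list of 30 genes of glycogen and of glucose entry and release was examined in the same fit. Of these, 28 passed the filter on low counts, 10 with a log2 change above 0 and 18 below, and their median was -0.045. None passed an adjusted p of 0.05 with edgeR, DESeq2 or limma-voom. At an unadjusted p under 0.05 in edgeR there was 1 gene higher in SA/SA mice, Pygm, and 1 lower, G6pc, beside 1.42% and 1.98% of all genes. Phkb, a subunit of phosphorylase kinase chosen here after its values were seen, had a log2 change of -0.00024 (SE 0.11). The catalytic subunits of protein phosphatase 1, Ppp1ca, Ppp1cb and Ppp1cc, had log2 changes of -0.048, -0.095 and -0.084.

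G6pc encodes the catalytic subunit of glucose-6-phosphatase, which frees glucose made from glycogen or by gluconeogenesis. It was at 213, 242, 335 and 451 CPM in WT mice and at 154, 181, 195 and 208 CPM in SA/SA mice, so that every SA/SA mouse was below every WT mouse. For G6pc the log2 change was -0.75 (SE 0.22, unadjusted p = 0.00655, adjusted p = 0.993 from edgeR; exact two-sided permutation p = 0.0286, the smallest that 4 mice against 4 allow). The permutation p follows from the lack of overlap, which 1.36% of all genes had in this direction. G6pc is described because of its unadjusted p, so the permutation p is no separate evidence. By qPCR, the study saw no change of this gene in SA/SA liver of females or of young males. In old males it described a trend towards lower G6pc. In the sequencing, G6pc differed by -0.80 in the low range of animal numbers and by -0.60 in the high range. Without WT replicate 4 its log2 change was -0.51.

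Pygm, the muscle form of phosphorylase, was low in liver, with 0.671, 1.22, 0.653 and 1.58 CPM in WT mice and 1.95, 0.993, 2.19 and 2.73 CPM in SA/SA mice, from between 31 and 138 counts. The genotypes overlapped (log2 change 0.93, SE 0.40, unadjusted p = 0.0405, adjusted p = 0.993 from edgeR). The 5 skeletal muscle markers summed to between 0.280 and 0.737 CPM in WT mice and between 0.612 and 0.850 CPM in SA/SA mice, with Acta1 and Myh4 at 0 counts in every library. Most of that sum was Mylpf, at 0.280 to 0.572 CPM in WT and 0.612 to 0.811 CPM in SA/SA mice. A lack of overlap in this direction was found for 0.943% of all genes tested. Tnnt3 went the other way, with 0.189 CPM in WT replicate 3 and at most 0.0395 CPM in SA/SA mice. Ckm reached 0.0199 CPM in WT mice and was at 0 in SA/SA mice. The part of muscle RNA in the Pygm values was not tested. Ppp1r3f, a minor targeting subunit, was at 0.358 to 0.533 CPM in WT and 0.0528 to 0.352 CPM in SA/SA mice. G6pc and Ppp1r3f were the 2 of the 28 genes that did not overlap between genotypes, beside 2.3% of all genes tested. The Ppp1r3f values came from between 2 and 27 counts (log2 change -0.78, SE 0.49, adjusted p = 0.993 from edgeR). Its counts before scaling overlapped, with 17 in WT replicate 3 and 19 in SA/SA replicate 1. Phkg1 and Ppp1r3a, the forms typical of muscle, were below the filter, with at most 12 and 2 counts in a library.

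**Figure D5:**
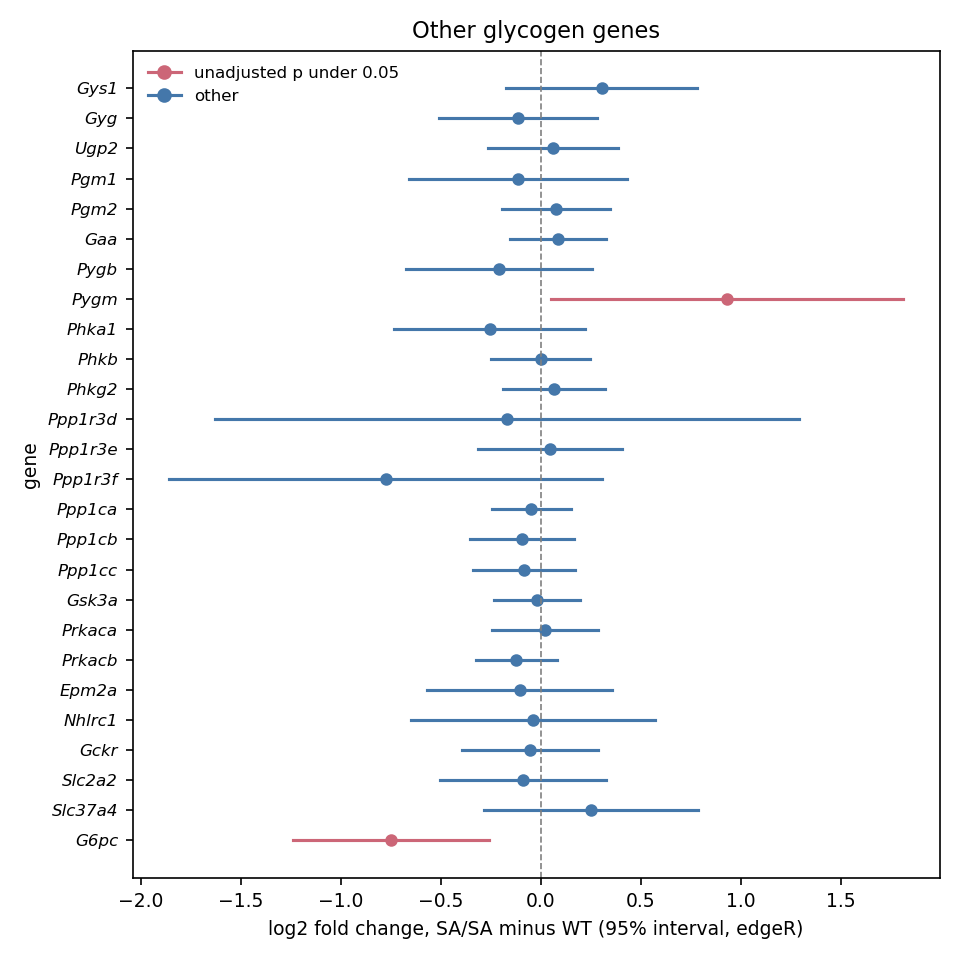
Log2 change in SA/SA relative to WT mice, with 95% intervals, for 26 of the 28 other glycogen genes that passed the filter. Red marks the unadjusted p under 0.05, Pygm at 0.93 and G6pc at -0.75. The intervals of the other 24 genes shown include 0.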

How the data were processed

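Liver RNA sequencing of 4 WT and 4 SA/SA mice was analysed, with a library for each of these separate animals. Estimated counts from salmon were deposited by the authors, scaled for average transcript length and not for library size. The submitters' processing notes name build GRCm38, STAR and DESeq2 among other tools. The salmon version, the annotation and the use of strand are not given in the sources used here. Columns were matched to mice by animal number. Estimated counts were rounded, filtered with filterByExpr, which left 14629 of 45706 genes, and tested with edgeR 4.0.16 in R 4.3.3 (TMM, quasi-likelihood, no block, adjusted p under 0.05 called). CPM uses TMM library sizes and log2 CPM a prior count of 2. Standard errors and 95% intervals come from the F statistic. Length scaling can change a count where isoforms differ between mice, and depth limits mainly the genes under 1 CPM.

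Alternatives were DESeq2 1.42.0, limma-voom (limma 3.58.1), other normalizations and filters, blocks and leaving out each mouse. No 2 libraries were copies, the smallest chi-square between a pair being 40.2 per gene. The genes and lists were chosen with earlier results of these data known. All 9 genes are named. Results for 2 genes of the wider list are counted but not reported here by name. Of the wider list, genes at an unadjusted p under 0.05, the 3 largest changes and those under the filter are named. Of the 45706 identifiers, 45143 are in GENCODE M21, which gives the coordinates.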

Additional observations from a re-analysis of the deposited data

Results flagged for a closer look

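Within the groups of 4 mice, the lowest and the highest mouse were checked for their distance from the others, for the 9 genes and the 28 other glycogen genes tested. In 74 groups, 3 values from the same 2 SA/SA mice stood apart, where chance alone marks about 1 in 20 groups, or 3.7 of these. SA/SA replicate 4 had 40.4 CPM of Ppp1r3g, far above the others of its genotype, which had from 1.63 to 2.24 CPM. The same mouse had 13.9 CPM of Gsk3b, below the others of its genotype at 20.1 to 21.0 CPM. Ppp1cb, a catalytic subunit of protein phosphatase 1, was low in SA/SA replicate 3 with 27.6 CPM, where the others of that genotype had from 34.6 to 35.5 CPM.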

How the results depend on the processing

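The count of called genes was 0 for the 9 genes and for the wider list under all 17 alternatives, of which DESeq2 gave no p for Ppp1r3g. Over all genes it was 0 with edgeR and limma-voom and 7 with DESeq2 (700 at an unadjusted p under 0.05). Gys2, Gbe1, Pygl, Phka2 and Ppp1r3c kept the sign of their change under every alternative run. With library size alone, that of Ppp1r3b was -0.039. With 1 mouse left out it ran from -0.24 to 0.28 for Ppp1r3b, from -0.18 to 0.12 for Stbd1, from -0.16 to 0.040 for Gsk3b and from -0.87 to 2.70 for Ppp1r3g. Ppp1r3g was at 0.92 with limma-voom. For the animal number ranges, leaving out 1 mouse gave between 0 and 111 genes called (111 without WT replicate 3), and for Phka2 a change of -0.0080 to 0.076. The interaction with the range called between 0 and 40 genes with 1 mouse left out (40 without WT replicate 4) and 1 gene with limma-voom. Leaving out mice in the comparisons by animal number was chosen after seeing the data. The cause of these shifts was not tested.

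Whether replicate numbers pair the mice is not settled here. Deviations of same-numbered mice correlated between -0.11 and 0.17. Replicates 1 and 2 of both genotypes and WT replicate 4 correlated best with their own number, and the other mice did not. With the replicate number as a block, 0 genes were called (579 at an unadjusted p under 0.05), and Gys2 was at 0.43 and Ppp1r3g at 0.89. With 4 mice a group, the intervals of Ppp1r3c and Ppp1r3g stay wide.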
